A study of Mus musculus with 91 samples.

Results

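Paraxial determination and somite boundary factors are the genes that carry mesoderm of the presomitic region towards a segmented somite. The 7 genes Mesp2, Ripply2, Tcf15, Meox1, Foxc1, Foxc2 and Cited1 were chosen by name from the 53379 genes in the count file, and all 7 were found there. They were measured in single cells dissected from wild type MF1 mouse embryos at the early headfold stage, around E8.0, from pieces of caudal lateral epiblast whose underlying paraxial mesoderm had mostly been taken off. All 91 cells came from pooled tissue of untreated embryos and were sorted by FACS, 1 to a well. There was no second genotype, treatment or stage, and the embryo of a cell is not named, so that the cells were 1 sample, no test between cells was made, and intervals and SDs describe cells and not embryos.

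Cells were divided by 2 genes that are not among the 7. A cell was called mesoderm-like where the level of Aldh1a2, a retinoic acid synthesis gene of paraxial mesoderm, was at least that of Nkx1-2, a homeobox gene of the caudal epiblast, and epiblast-like otherwise. Levels are in CPM, the count of a gene for every 1000000 counts of its cell. This gave 48 mesoderm-like and 43 epiblast-like cells. The division was wide, since only 4 cells lay within 4-fold of the boundary. The last cell on the epiblast side, B10, had 570 CPM of Aldh1a2 and 688 CPM of Nkx1-2, and the first on the mesoderm side, G3, had 301 and 164 CPM. Of 10 mesoderm markers, 10 had reads in at least 50% of the mesoderm-like cells and 2 in at least 50% of the epiblast-like cells. Of 10 epiblast markers, 5 did so in the mesoderm-like and 7 in the epiblast-like cells. Genes of other mesoderm were read unevenly. Of 16 genes listed for lateral and intermediate mesoderm, 6 had no read in the 48 mesoderm-like cells. Hand1 was read in 1 of these cells, Gata6 in 8 (up to 82.4 CPM), Foxf1 in 10 and Lhx1 in 25. Of 12 genes listed for endothelium and blood, 6 had no read in them. Lmo2 of that list was read in 38 mesoderm-like and 10 epiblast-like cells, at means of 104 and 8.20 CPM. Cells had 709866 to 4439571 counts, with a median of 2589802 in mesoderm-like and 2450073 in epiblast-like cells.

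As background, cells that leave the primitive streak enter the presomitic mesoderm, where T, Tbx6 and Msgn1 mark the posterior, immature end. At the anterior end, where Wnt and FGF signals fall and retinoic acid rises, Tbx6 and Notch signalling in the mouse switch on Mesp2, a bHLH factor that sets the place of the next somite boundary. Mesp2 turns on Ripply2, a corepressor that ends the Tbx6 and Mesp2 phase. Foxc1 and Foxc2, paired forkhead factors, are needed for somites to form, Meox1 is a homeobox factor of the somite, and Tcf15 (paraxis), another bHLH factor, makes the somite epithelial. Cited1 encodes a transcriptional co-regulator that binds CBP and p300.

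The 7 genes fell on a ladder of detection in the mesoderm-like cells. Cited1 was read in every one of them, Meox1 and Foxc1 in about 4 of 5, Foxc2 in about 1 of 2, Tcf15 in fewer than 1 of 3, Ripply2 in 3 cells and Mesp2 in none. The boundary genes proper, Mesp2 and Ripply2, were thus all but unread, and the levels describe mostly the determination genes. In the number of cells with reads the order was the same when every cell was thinned to 500000 counts, with 48, 39, 37, 23, 14, 3 and 0 cells.

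**Figure D1:**
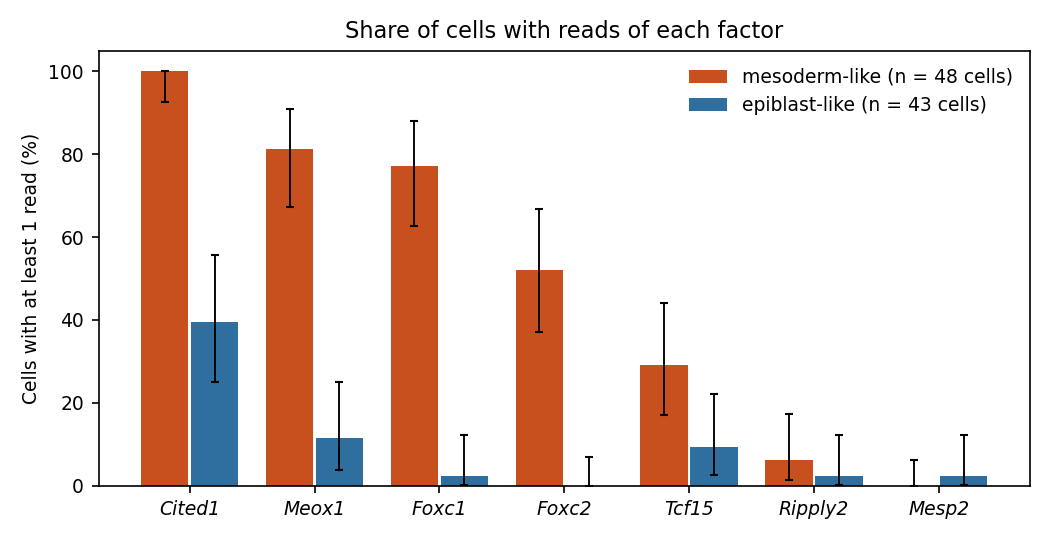
Share of cells with at least 1 read of each gene, in % (vertical axis), in 48 mesoderm-like (orange) and 43 epiblast-like cells (blue). Whiskers are exact 95% Clopper-Pearson intervals, or reach 3 of the cells where no cell had a read, and the share falls from 100% for Cited1 to 0% for Mesp2 in mesoderm-like cells.

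Cited1 (ENSMUSG00000051159, GRCm38 chrX:102247381-102252181) was the most even of the genes. In mesoderm-like cells it ran from 32.7 CPM through a median of 428 CPM to 1266 CPM, with a mean of 475 ± 286 CPM (SD over 48 cells). In epiblast-like cells it averaged 6.73 ± 25.3 CPM (43 cells), with a read in 17 of them (39.5%, interval 24.98 to 55.6%). Only 7 epiblast-like cells had at least 5 Cited1 reads, and the highest of them was the boundary cell B10 with 447 reads, or 161 CPM. The classes overlapped through B10, which was above 6 mesoderm-like cells, and through the epiblast-like cell G9, whose 37.4 CPM lay above G3 alone. The log2 ratio of the mean levels, with 1 CPM added to each mean, was 5.94, and 6.92 without the 4 cells near the boundary.

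Meox1 (ENSMUSG00000001493, chr11:101877510-101894374) was read in 39 mesoderm-like cells (81.2%, interval 67.4 to 91.1%) and in 5 epiblast-like cells (11.6%, interval 3.89 to 25.1%). Its level in mesoderm-like cells ran from 0 through a median of 65.2 CPM to 529 CPM, against a highest value of 63.7 CPM in epiblast-like cells. The means were 111 ± 121 and 1.94 ± 9.92 CPM, a log2 ratio of 5.25. A cell with Meox1 reads usually had many, since the lowest level among those 39 was 19.6 CPM.

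Foxc1 (ENSMUSG00000050295, chr13:31806633-31812476) was read in 37 mesoderm-like cells (77.1%, interval 62.7 to 87.97%) at 63.7 ± 69.9 CPM, and in 1 epiblast-like cell, D7, with 1 read. The ratio of pooled reads was 6945, with a counting interval of 1246 to 274337 that rests on this single read. Foxc2 (ENSMUSG00000046714, chr8:121116171-121118895) was read in 25 mesoderm-like cells (52.1%, interval 37.2 to 66.7%) at 50.3 ± 72.6 CPM. None of the 43 epiblast-like cells had a read, which allows up to 6.98% of such cells. With 3 reads over all epiblast-like cells as the floor, the ratio of pooled reads was 1858. That floor counts reads and not cells. Mesoderm-like cells with Foxc2 reads had a median of 79.4 CPM, so that 1 further epiblast-like cell of this kind would exceed the floor. The ratio is therefore no lower limit for the difference between the classes. By their reads both Foxc genes were close to silent in these 43 epiblast-like cells. Their highest values were 337 CPM in cell H4 for Foxc1 and 292 CPM in cell A6 for Foxc2. Both genes have a single exon, so that reads from unspliced RNA cannot be told apart from those of mRNA.

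Tcf15 (ENSMUSG00000068079, chr2:152143561-152149097) was read in 14 mesoderm-like cells (29.2%, interval 16.95 to 44.1%) and in 4 epiblast-like cells (9.30%, interval 2.59 to 22.1%). Its means were 17.3 ± 38.3 and 1.90 ± 6.64 CPM, a log2 ratio of 2.65. That ratio was 3.63 in plate rows A to D and 1.54 in rows E to H, and 1.20 when 10 CPM were added to the means. Among the 14 cells it ran from 11.5 to 188 CPM, and the epiblast-like cells D5, E9, G9 and H1 reached 35.2 CPM at most, so that the levels overlapped. In none of these 4 epiblast-like cells was a Foxc gene read, and E9 alone had Meox1 reads as well.

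Ripply2 (ENSMUSG00000047897, chr9:87015537-87019917) was read in the mesoderm-like cells D4, F2 and G7, with 1911, 50 and 9 reads, or 430, 14.7 and 5.41 CPM. Among epiblast-like cells it was read in C1 alone, with 41 reads or 11.7 CPM, a cell with 994 CPM of Nkx1-2 and no Aldh1a2 read. The log2 ratio of the means was 3.03 with cell D4 and 0.17 without it, and it was 0.97 in plate rows E to H, which do not hold D4. The Ripply2 difference between the classes therefore rests on 1 cell.

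Mesp2 (ENSMUSG00000030543, chr7:79810727-79813439) had no read in the 48 mesoderm-like cells, so that at most 6.25% of such cells are allowed to have one. It had 6 reads in the epiblast-like cell H1, or 2.57 CPM. Its neighbour and paralogue Mesp1, which acts in the earliest mesoderm, was read in 5 mesoderm-like cells and 1 epiblast-like cell. No cell of either class had reads of Mesp2 and Ripply2 together.

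The start regions of Mesp2 and Ripply2 are shown because these are the genes with almost no reads, and because Tbx6, which was read in all 48 mesoderm-like cells at 325 ± 221 CPM, acts upstream of Mesp2. Each runs from 250 bases before to 50 bases after the RefSeq start (GRCm38.p6, 5′ to 3′, both on the plus strand), Mesp2 at chr7:79810477-79810776 and Ripply2 at chr9:87015287-87015586. Capitals mark a match to the T-box motif AGGTGT, searched on both strands.
Mesp2: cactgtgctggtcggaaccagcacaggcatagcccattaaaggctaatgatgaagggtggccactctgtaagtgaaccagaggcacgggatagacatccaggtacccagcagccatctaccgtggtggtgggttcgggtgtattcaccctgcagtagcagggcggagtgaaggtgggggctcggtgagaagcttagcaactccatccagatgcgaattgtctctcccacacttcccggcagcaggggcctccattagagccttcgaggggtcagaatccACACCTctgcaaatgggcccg
Ripply2: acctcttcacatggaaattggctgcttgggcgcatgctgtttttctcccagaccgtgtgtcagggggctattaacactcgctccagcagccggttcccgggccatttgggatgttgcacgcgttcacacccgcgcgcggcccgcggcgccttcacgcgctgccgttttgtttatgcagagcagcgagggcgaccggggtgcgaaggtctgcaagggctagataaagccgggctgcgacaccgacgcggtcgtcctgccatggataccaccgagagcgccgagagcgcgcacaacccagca
The Mesp2 region held 1 match, on the minus strand and just after the start, and the Ripply2 region held none. Of all 32851 RefSeq start regions of this length, 13.7% held the T-box motif, and 25.6% held TGGGAA, the core motif of the Notch effector RBPJ, which was in neither of the regions shown. Of the 7 genes, 4 had an entry among these regions. Foxc1 had 1 TGGGAA match and no T-box motif, and the 3 start regions of Cited1 had neither. A match is a run of letters and not a measured binding site.

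**Figure D2:**
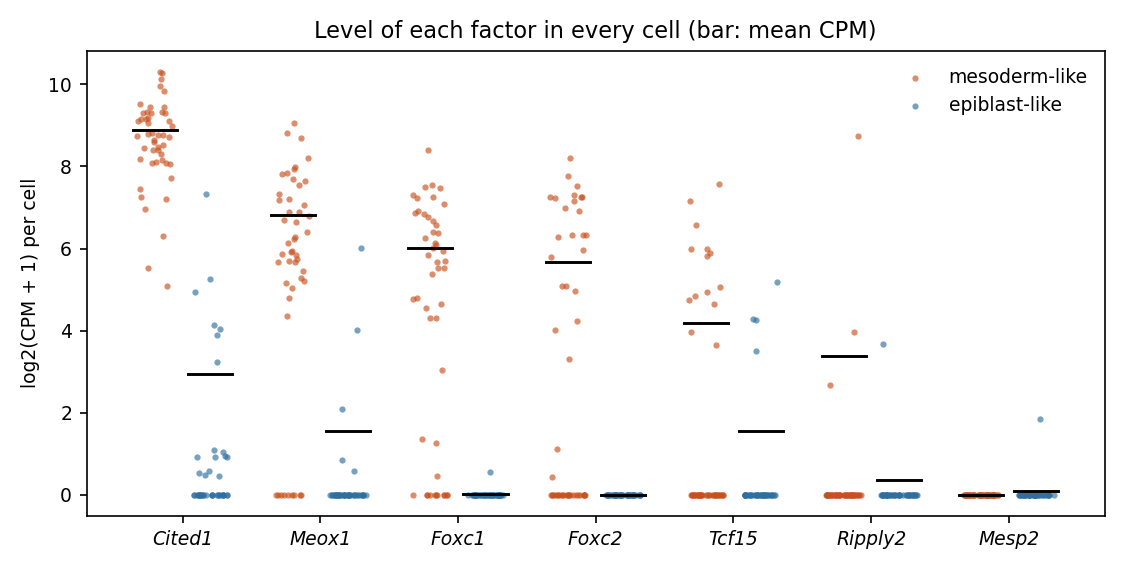
Level of each gene in every cell as log2(CPM + 1) (vertical axis), for 48 mesoderm-like (orange, left of each pair) and 43 epiblast-like cells (blue), with black bars at the mean CPM on the same scale. Cited1 lies above 0 in all mesoderm-like cells, Meox1, Foxc1 and Foxc2 have many cells at 0 and many well above it, with 3 cells of Foxc1 and 2 of Foxc2 at 1 to 4 reads in between, and a single cell carries the Ripply2 mean.

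Of the 7 genes, 6 had at least a 2-fold higher mean in the mesoderm-like class. Mesp2 had reads in fewer than 3 of the 91 cells and was not compared. Of all 18054 genes with a read in at least 3 cells, 9.55% did so, and the median log2 ratio was -0.01, against 5.47 over the 6. Meox1, Foxc1, Foxc2 and Cited1 are among the markers that the study chose on these same cells, and genes that are nearly unread in one class can pass the read filter only through the other. The count is therefore a description and no independent evidence of direction. Without cell D4 it was 5. It was also 5, beside 9.53% of 9283 genes, when a mean of at least 10 CPM in a class was required. With the class set by Fn1 and Cdh1 instead, which moved 5 cells, the log2 ratio of Foxc2 was 3.35 and that of Foxc1 4.36.

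Per length of exon the order of the levels was not the order of detection. In mesoderm-like cells Cited1 averaged 271 ± 163 RPKM (CPM per kilobase of exon), Meox1 49.8 ± 54.5, Foxc2 18.5 ± 26.6, Tcf15 17.6 ± 39.1, Ripply2 12.8 ± 84.5 and Foxc1 10.9 ± 11.97 RPKM. Cited1 stood above the others beyond the SD over cells, and the last 4 did not differ beyond it. Foxc1 was read in more cells than Foxc2 but had the lower mean level per length, over exons of 5844 against 2725 bases.

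Mesoderm-like cells differed in which of the genes were read together, and several combinations were seen in 1 cell only. The median was 4 of the 7 genes per cell. It was 2 in 13 cells, 3 in 9, 4 in 19, 5 in 5 and 6 in 2 cells, and no mesoderm-like cell had fewer than 2. Of the epiblast-like cells 22 had none, 13 had 1 and 8 had 2. The most frequent combination, in 13 cells, was Meox1, Foxc1, Foxc2 and Cited1. The next, in 6 cells each, were Cited1 with Foxc1 alone, Cited1 with Meox1 alone, and Cited1 with both.

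Co-detection of most pairs was near the number that their separate shares give. Foxc1 and Foxc2 were read together in 21 cells, where the shares alone give 19.3. Foxc1 alone was read in 16 cells and Foxc2 alone in 4, and with at least 5 reads of each asked for, 20 cells had both. Meox1 and Foxc1 were read together in 29 cells against 30.1 from the shares, and 10 cells had Meox1 without Foxc1 while 8 had Foxc1 without Meox1. Either gene was thus read without the other, and their levels had a Spearman rho of -0.05 over the 48 cells. Meox1 and Foxc2 had a rho of 0.33 and Foxc1 and Foxc2 of 0.35, which are weak in counts as sparse as these. Cited1 ran against Foxc1 with a rho of -0.29.

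Tcf15 was read beside the more frequent genes about as often as their shares give. Of the 14 cells with Tcf15 reads 13 had Meox1 reads (11.4 from the shares), 11 had Foxc1 reads (10.8) and 9 had Foxc2 reads (7.29). The exception for Meox1 was cell C4, which had 69 Tcf15 reads beside Foxc1 and Foxc2. In level, Tcf15 had a rho of 0.37 with Meox1, 0.25 with Foxc2 and 0.13 with Foxc1 over the 48 cells. All 3 cells with Ripply2 reads had Tcf15 (0.875 from the shares), Meox1, Foxc1 and Cited1 reads, and 2 of them had Foxc2 reads. No cell had Ripply2 without Tcf15 in the mesoderm-like class.

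**Figure D3:**
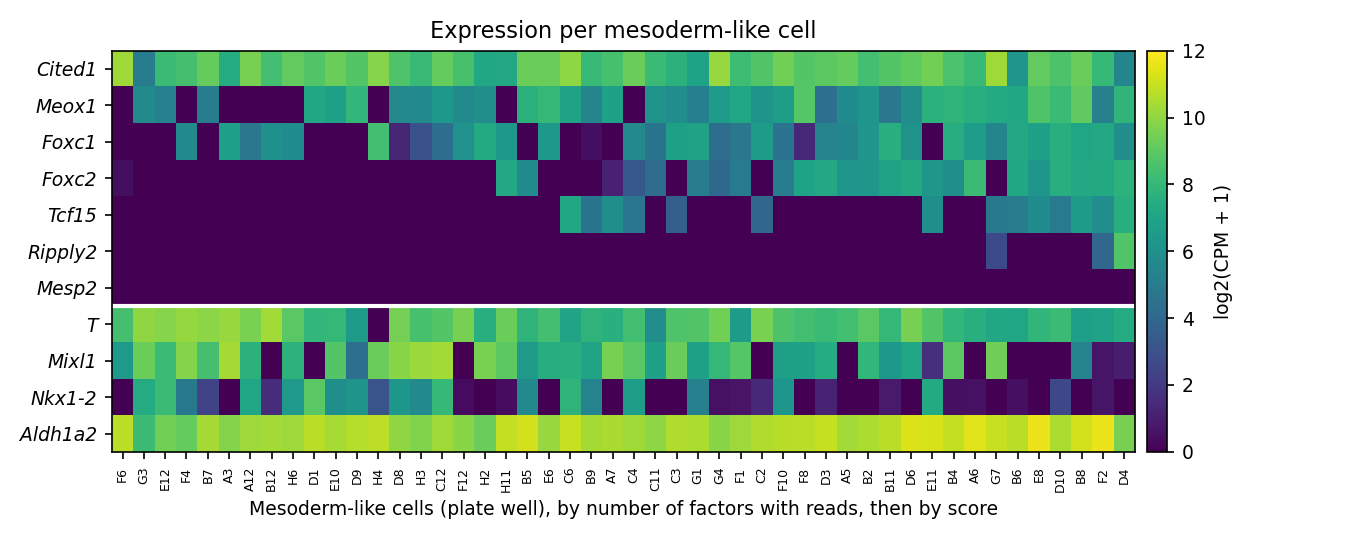
Level of the 7 genes (above the white line) and of T, Mixl1, Nkx1-2 and Aldh1a2 (below it) in each of the 48 mesoderm-like cells, as log2(CPM + 1) by colour, with cells ordered by the number of the 7 genes read and then by their summed level. Tcf15 and Ripply2 fill in at the right, where T is lower and Mixl1 and Nkx1-2 are often at 0.

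The number of these genes read in a mesoderm-like cell went with lower levels of T and Nkx1-2. T, the primitive streak factor, had a median of 769 CPM in the 13 cells with 2 of the genes, 363 CPM with 3, 331 CPM with 4, 143 CPM with 5 and 143 CPM with 6. Nkx1-2 had medians of 62.5, 51.02, 0.447, 0 and 0.295 CPM in the same order. The class rule used Nkx1-2, so that its range in these cells is cut and it is no independent measure. Mixl1 was highest in the cells with 3 of the genes, with medians of 289, 507, 128, 0 and 0.745 CPM. Fn1, which encodes fibronectin, went the other way, with medians of 337, 428, 630, 716 and 858 CPM. Tbx6, the presomitic T-box factor, followed no such order, at 259, 330, 245, 341 and 206 CPM. Each of these sets holds fewer than 20 cells, and genes with a read per cell had a rho of 0.31 with the number.

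A summed level over the 7 genes, the sum of log2(CPM + 1), gave the same picture. It ran from 10.7 in cell F6 to 43.4 in cell D4 with a median of 23.4. Its Spearman rho over the 48 cells was -0.49 with T, -0.48 with Fgf4, -0.45 with the streak homeobox gene Mixl1 and -0.44 with Nkx1-2. It was 0.56 with Aldh1a2, 0.50 with Fn1 and 0.38 with Pdgfra. With the presomitic genes Msgn1 and Tbx6 and the Notch ligand gene Dll1 it was -0.27, 0.10 and 0.08. With total counts it was 0.01, and with genes per cell 0.21. All points share 1 pool and 1 plate, and the class rule used Aldh1a2 and Nkx1-2, so that their ranges in the class are cut. In plate rows A to D the rho with T was -0.44 and in rows E to H -0.49, and it was -0.32 when the class was set by Fn1 and Cdh1 instead.

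**Figure D4:**
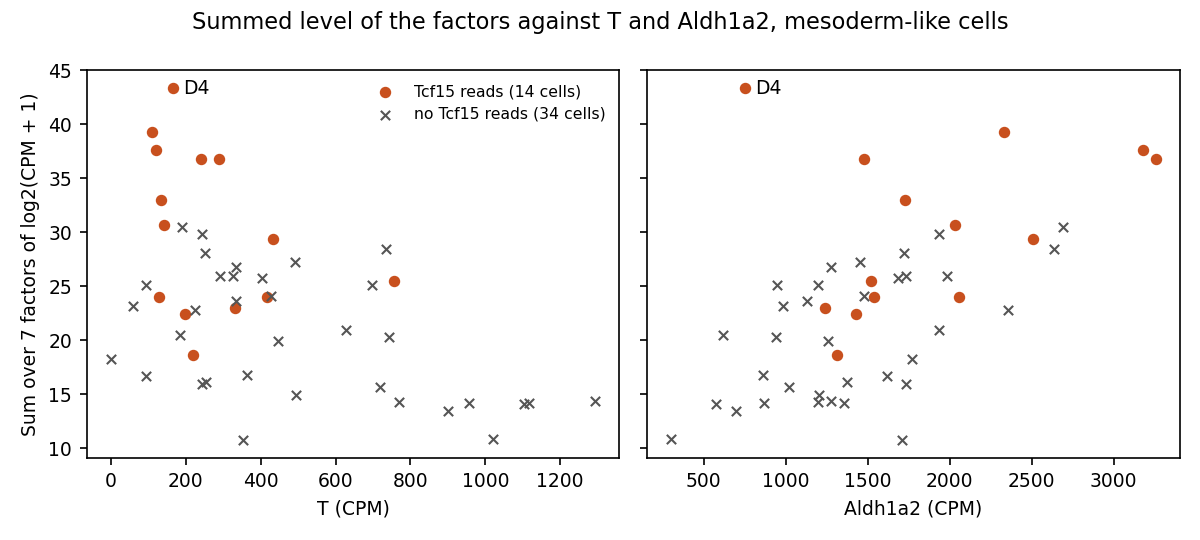
Sum over the 7 genes of log2(CPM + 1) (vertical axis) against the CPM of T (left) and Aldh1a2 (right) in 48 mesoderm-like cells, with filled circles for the 14 cells with Tcf15 reads and crosses for the 34 without. Sums tend to be higher at low T and at high Aldh1a2 (rho of -0.49 and 0.56), with cell D4 highest at a low Aldh1a2. The class rule used Aldh1a2, so that its range is cut.

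Single members shared this pattern unequally. T had a rho of -0.49 with Meox1, -0.40 with Tcf15, -0.31 with Foxc2, -0.14 with Foxc1 and -0.04 with Cited1. Nkx1-2 had its lowest rho with Foxc1 (-0.45) and Foxc2 (-0.38). Its median was 0.447 CPM in the 37 cells with Foxc1 reads and 72.9 CPM in the 11 without. T had a median of 289 CPM in the 39 cells with Meox1 reads, from 59.6 to 1022 CPM, and of 628 CPM in the 9 without, from 0 to 1293 CPM, so that the ranges overlapped. Foxc2 went with Aldh1a2 (0.51). The class rule used both Nkx1-2 and Aldh1a2, so that the values with them are no independent measure. The median of Aldh1a2 was 1718 CPM in the 25 cells with Foxc2 reads and 1258 CPM in the 23 without. Cited1 shared little of the pattern with T and Nkx1-2, with a rho of 0.18 with Nkx1-2. With Aldh1a2 its rho was 0.31, beside 0.34 for Meox1, 0.33 for Tcf15 and 0.18 for Foxc1. The largest rho of Cited1 among these measures was -0.51, with the mitochondrial share of the counts, whose part in its level was not tested.

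Cells with Tcf15 reads tended to have less T and Mixl1 and more Fn1. T ran from 110 through a median of 209 to 757 CPM in the 14 cells with Tcf15, and from 0 through 383 to 1293 CPM in the 34 without. Mixl1 had medians of 21.3 and 210 CPM, and Fn1 of 821 and 489 CPM. Tbx6 averaged 419 ± 299 CPM with Tcf15 and 287 ± 170 CPM without, and Msgn1 134 ± 95.6 and 162 ± 97.1 CPM. None of these 5 genes differed 2-fold in its mean, and every range overlapped. Meox1 was at the 2-fold line, at 172 ± 152 CPM with Tcf15 and 85.7 ± 98.2 CPM without, and fell just under it without cell D4. Of 7 compared genes of anterior presomitic mesoderm and somite, 3 were at least 2-fold higher with Tcf15, beside 8.44% of all 15729 genes compared, and 1 (Mesp1) was lower, beside 10.3%. Among them were Pcdh8, which encodes the protocadherin PAPC of the forming boundary, at 93.8 ± 148 and 29.6 ± 58.5 CPM, and Twist1, read in 3 of 14 and 1 of 34 cells. Without cell D4 Pcdh8 averaged 58.9 CPM and was no longer 2-fold higher. Lhx1, a gene of intermediate and lateral mesoderm, had means of 11.1 ± 16.05 CPM with Tcf15 and 58.8 ± 78.2 CPM without. Other genes of that list went the other way, with Gata6 at 15.1 ± 28.3 and 1.75 ± 9.24 CPM and Bmp4 at 8.22 ± 22.05 and 1.91 ± 6.31 CPM, so that of its 6 compared genes 2 were at least 2-fold higher with Tcf15 and 1 was lower. Of 8 compared epiblast markers, 1 was at least 2-fold higher with Tcf15 and 2 were lower, beside the same 8.44% and 10.3% of all genes. The higher one was Wnt8a, at 59.6 ± 66.5 CPM with Tcf15 and 19.2 ± 33.3 CPM without. Median counts were 2624147 and 2546953, and median genes per cell 7902.5 and 7835.5.

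Beyond the 7 genes, other genes of the somite programme ranged from unread to read in every mesoderm-like cell. Of 23 genes listed for anterior presomitic mesoderm and somite, 11 had no read in any mesoderm-like cell, among them Ripply1, Uncx, Tbx18, Meox2 and Nkx3-2. In epiblast-like cells 10 of the 23 had no read, and of all 53379 genes in the count file 23487 had a read. Only Epha4, Efnb2 and Cdh11 had reads in at least 50% of the mesoderm-like cells. Of the 9 that were compared, 7 were 2-fold higher or more in the mesoderm-like class, with a median log2 ratio of 1.76. The ephrin receptor gene Epha4 averaged 260 CPM in mesoderm-like and 76.1 CPM in epiblast-like cells. Of 15 posterior presomitic genes, 7 were at least 2-fold higher and 3 lower, beside 9.55% and 8.18% of all genes, and 10 had reads in at least 50% of the mesoderm-like cells. Msgn1 was read in all 48, at 154 CPM against 1.23 CPM in epiblast-like cells, and Rspo3 in all 48, at 336 against 13.6 CPM. Of the lower ones, Hes3 was read in 1 mesoderm-like cell and 39 epiblast-like cells. Of 15 genes of the segmentation clock, 8 were at least 2-fold higher and 2 lower, beside the same 9.55% and 8.18% of all genes. Dll3 was read in 45 and Lfng in 25 of the 48 cells. The 2 lower genes were Hes1, at 2.81 CPM in mesoderm-like and 45.5 CPM in epiblast-like cells, and Hey1, at 4.90 and 19.3 CPM. For 17 genes of unrelated organs 0.98% of all pairs of a gene and a mesoderm-like cell held a read, and 0.41% of the pairs with an epiblast-like cell. The thyroid gene Tg made up 5 of these mesoderm-like cells' pairs and reached 123.0 CPM, above the Ripply2 levels of F2 and G7.

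Among paralogues and partners, the alternative family members were mostly silent. Foxf1 was read in 10 mesoderm-like cells, Ripply3 in 5 and Foxd1 in 3, and Meox2, Ripply1, Tcf21 and Foxf2 in none. Cited2, the paralogue of Cited1, was read in all 48 mesoderm-like cells and in 41 epiblast-like cells, at 331 and 157 CPM. Crebbp, which encodes CBP, was at 330.4 and 299.99 CPM, and Ep300, which encodes p300, at 30.6 and 29.1 CPM. The difference of Cited1 between the classes was thus much larger than that of its paralogue or its partners.

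Cell D4 stood apart from the other 47 mesoderm-like cells. It was singled out after its values were seen. It had the highest sum over the 7 genes, and it had the most Ripply2 and Tcf15 of all 48 cells, with Tcf15 at 188 CPM against at most 142 CPM in the others. Foxc2 was at 218 CPM, above 46 of the other 47, Meox1 at 230 CPM and Foxc1 at 60.1 CPM, inside their ranges. Cited1 was at 45.05 CPM, below all but 1 of the others, whose median was 432 CPM.

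Several anterior presomitic and somite genes were at their highest in D4, and most posterior ones were low. Cer1, which is expressed in anterior presomitic mesoderm and forming somites as well as in endoderm, had 7596 reads or 1711 CPM in D4 and none in any other of the 91 cells. Reads of the endoderm genes Sox17 and Foxa1 were absent from all 91 cells, D4 or not. Of genes known from other mesoderm and endoderm or from endothelium and blood, Gata6 was at 62.2 CPM in D4, with 1 other mesoderm-like cell above it, and Fli1 had 372 reads in D4 and none in the other 47. Their part in the pattern of D4 was not tested. Pax3, a factor of the early somite, had 206 reads in D4 and none in the other 47. Pcdh8 was at 548 CPM in D4 and at most 239 CPM in the others, and Twist1 at 64.4 and at most 45.7 CPM. Notch1 was at 577 CPM, with at most 456 CPM elsewhere. At the posterior end, Tbx6 was at 62.4 CPM in D4, below all 47, and Msgn1 had 1 read against a median of 138 CPM. T was at 165 CPM, Rspo3 at 49.1 CPM, and Wnt3a, Fgf4, Nkx1-2 and Cdh1 had no read. Of 10 posterior presomitic genes read in 50% or more of the cells, 9 were below the median of the other cells, as were 43.3% of all such genes. The exception was Wnt5a, at 281 CPM in D4 against a median of 37.2 CPM in the other 47, with 1 of them above D4. Of 7 compared anterior presomitic and somite genes, D4 was above every other cell in 3, as in 1.69% of all genes. D4 had no Mesp2 read and 22 Mesp1 reads. It also had the largest total of all cells, 4439571 counts, with 8852 genes read, and Aldh1a2 at 752 CPM, below 43 of the other 47.

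**Figure D5:**
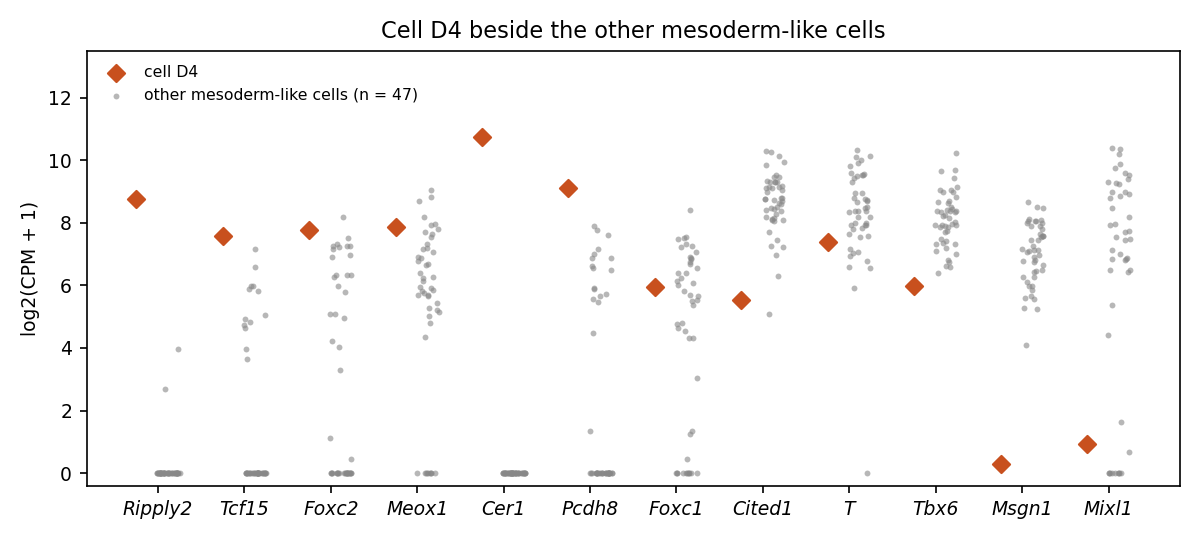
Level as log2(CPM + 1) (vertical axis) of Ripply2, Tcf15, Foxc2, Meox1, Cer1, Pcdh8, Foxc1 and Cited1 and of T, Tbx6, Msgn1 and Mixl1 in cell D4 (diamonds, left of each pair) and in the other 47 mesoderm-like cells (grey). D4 lies above the others for Ripply2, Tcf15, Cer1 and Pcdh8 and below them for Tbx6 and Msgn1.

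The other cells with Ripply2 reads resembled D4 only in part. F2 had Tcf15 at 58.04 CPM, Foxc1 at 149 CPM and Foxc2 at 153 CPM, with Pcdh8 at 94.0 CPM, but Tbx6 at 350 CPM, Msgn1 at 84.8 CPM and Aldh1a2 at 3179 CPM. G7 had Tcf15 at 27.6 CPM and Meox1 at 160 CPM, no Foxc2 read, and Tbx6 at 416 CPM with Mixl1 at 673 CPM. Neither had a Cer1 read.

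Over all genes, the patterns most like each member were of moderate strength and were the highest of 10688 comparisons over the same 48 cells. They were Ntm (0.60), Arf6 and Dlst for Tcf15, Dhrs1 (0.59), Mpnd and Puf60 for Meox1, Wasf3 (0.57), Rhou and Aldh1a2 for Foxc2, and Gm10269 (0.64) and Vcp for Cited1. For Foxc1 the highest was Rpl5-ps1 at 0.48, a pseudogene whose reads may belong to its parent gene. None of these lists holds another of the 7 genes.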

How the data were processed

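The authors deposited raw counts of reads per gene for each of the 91 cells. Their Smart-seq2 libraries, without molecular identifiers, were aligned to GRCm38 (mm10) with HISAT2 and counted with featureCounts. Tool versions, gene annotation and strand setting were not given in the sources used here. Columns were mapped to cells by title, and 0 pairs of cells had identical counts.

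CPM, shares and Spearman correlations were computed in Python (3.11.15) using pandas 2.3.3, numpy 2.4.6 and scipy 1.17.1. Folds are ratios of mean CPM after 1 CPM was added to each mean, over genes with a read in at least 3 cells, and 2-fold was the call. Shares have exact Clopper-Pearson intervals (95%), and 3 counts set the limit where a count was 0. These cover counting error only. Exon lengths and coordinates come from GENCODE M21, in which no other exon overlaps those of the 7 genes. The 2-fold call, the thinning and the rank correlation were checked on simulated data, and the detection shares and co-detection were not.

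Beside the 7, the rule named up to 4 genes of each list with the largest ratio among those at least 2-fold different and read in 50% or more of one class, up to 3 genes of lists for other cell types, and the 3 most alike to each member. Further genes were named after their values were seen. Some genes that the rule or a count takes in are not reported here. Members and lists were chosen with earlier results of these data known. Doublets were not searched for.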

Additional observations from a re-analysis of the deposited data

How the results depend on the processing

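Across 45 recomputed values 41 stayed within 1.5 times the value reported. Most of the 45 are counts, which cannot change sign, and none of the rho values changed sign. By plate rows, Foxc1 and Foxc2 were read together in 13 of the 27 mesoderm-like cells of rows A to D and in 8 of the 21 of rows E to H, and Tcf15 and Meox1 in 4 cells of rows E to H, as fewer cells were counted. With the class set by Fn1 CPM of at least Cdh1 CPM, which moved 5 cells, the rho of the summed level with T was -0.32; the cause was not tested. Over all alternatives it ran from -0.49 to -0.32, and that with Aldh1a2 from 0.40 to 0.67. With a pseudocount of 10 CPM, a mean of at least 10 CPM, each group of plate rows, or without cell D4, 5 of the 7 genes were counted as 2-fold higher. The gene lost was Ripply2. Its log2 ratio was under the 2-fold line with the pseudocount, in rows E to H and without D4. In rows A to D its ratio was 3.39, but only C1 and D4 had reads, too few to be compared. With the mean filter it was dropped at 9.39 CPM. The alternatives without cell D4 or without the 4 cells near the boundary were chosen after seeing the data. Size factors in place of CPM left 6. Mesp2 and Ripply2 are left out of these numbers, as Mesp2 had no read in the class. With 10 CPM added to the means the log2 ratios were 4.86 for Cited1, 3.34 for Meox1, 2.88 for Foxc1, 2.59 for Foxc2, 1.20 for Tcf15 and 0.92 for Ripply2. In plate rows A to D and E to H they were 5.28 and 6.73 for Cited1 and 6.54 and 4.65 for Meox1. No paired analysis was possible because the cells are 1 pooled sample.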

Other observations

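In cell D4 Fgfr2, a receptor gene chosen after its values were seen, had 2345 reads or 528 CPM, while the other 47 mesoderm-like cells had at most 13.2 CPM and epiblast-like cells up to 245 CPM. Snai1 was at 88.7 CPM in D4, and 2 of the other mesoderm-like cells were above it. Rdh10, a retinoic acid synthesis gene, was at 247 CPM in D4 and at most 191 CPM in the others.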
